A study of Homo sapiens with 5 samples.

Results

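The genes described here encode enzymes of cholesterol and fatty acid synthesis together with the proteins that sense sterols and control both routes. They form a list of 31 symbols, chosen by name and with earlier results of these data known. The deposited table holds 37181 genes and assembled loci. Of the 31 symbols, 21 belong to the sterol arm and 10 to the fatty acid arm. For each symbol the entry with the highest mean over the libraries was taken. An entry carrying the symbol was found for 30, and 29 passed the filter of a mean of at least 0.5 FPKM and were tested.

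HCC827 is a human lung adenocarcinoma cell line that carries an EGFR exon 19 deletion, in the parental and in the resistant cells alike. HCC827/GS is the parental line, which is sensitive to the EGFR kinase inhibitor gefitinib, and 2 of its libraries were used (replicates 2 and 3). HCC827/GR is the resistant line, which was raised from the parental cells by stepwise increases of gefitinib over more than 6 months, and 3 of its libraries were used (replicates 1 to 3). The labels give 1 resistant line, no clone, no dose and no statement of whether the drug was present at harvest. Nothing says that the replicates came from separate cultures, so the p-values measure the spread between these libraries, which may be technical. The values are FPKM, fragments scaled by transcript length and by library size, and can therefore be compared between genes. Since FPKM carry no read counts, sequencing depth is unknown here.

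Cells build cholesterol from acetyl-CoA by the mevalonate pathway, which makes the isoprenoid units that are joined to squalene and closed into the sterol ring. Fatty acid synthesis starts from the same acetyl-CoA, and the saturated chain is then desaturated and elongated. Both routes are controlled by the SREBP transcription factors, which SCAP carries to the Golgi for cleavage when sterols are low and which the INSIG proteins hold back in the endoplasmic reticulum when sterols are high.

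The comparison asked whether expression of the sterol arm and of the fatty acid arm differed between resistant and parental cells. One member, the mevalonate kinase gene MVK, was lower in HCC827/GR at an adjusted p under 0.05, and none was higher (limma, Benjamini-Hochberg adjustment over the 16189 entries tested). Among all entries tested, 5.26% were called higher and 5.71% lower. At an unadjusted p under 0.05, 2 members were higher, where 13.4% of all entries were, and 4 were lower, where 13.8% were. Ballgown's linear model called 0 members in either direction, but among all 16189 entries it called only 6 higher and 9 lower. The median log2 change, on the scale of log2(FPKM + 1), was -0.14 over the 20 tested members of the sterol arm and 0.31 over the 9 of the fatty acid arm, against 0.00 over all entries. The sterol median stayed negative when any 1 library was left out, whereas the fatty acid median turned to -0.12 without HCC827/GS replicate 3. Between the parental libraries, the median log2 difference of replicate 2 minus replicate 3 was 0.20 over the sterol arm and 0.07 over the fatty acid arm. In the sterol arm this was larger in size than the median change of -0.14 between the lines.

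**Figure D1:**
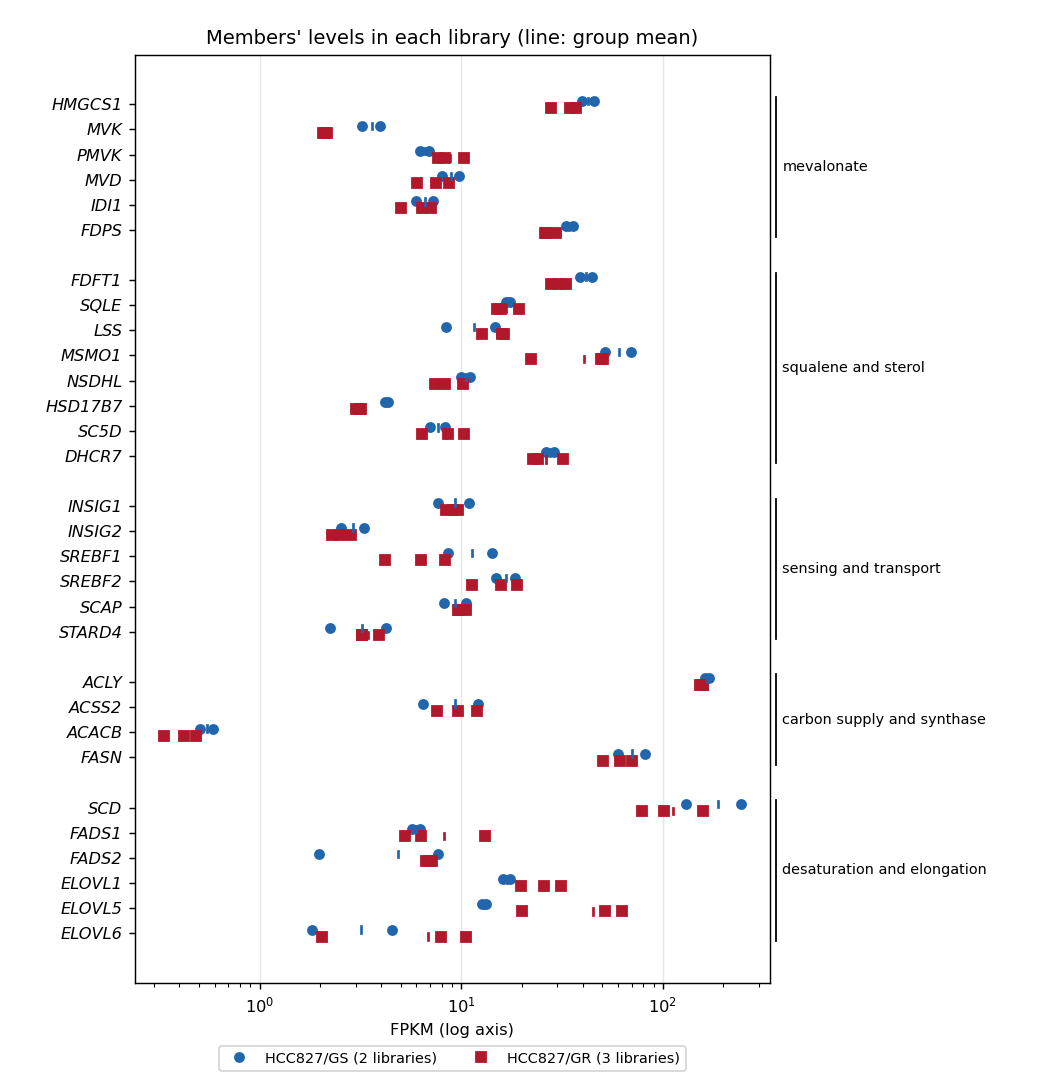
Level of each of the 30 members with an entry, in FPKM on a log axis, in the 2 HCC827/GS libraries (circles) and the 3 HCC827/GR libraries (squares), with a line at each group mean and the members ordered by role. The groups overlap for most members, and levels span from below 1 FPKM for ACACB to over 100 FPKM for ACLY and SCD.

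Most of the sterol arm differed by less than 2-fold between the lines. Of its 20 tested members, 17 had a 95% interval of the change in log2(FPKM + 1) that lay within 2-fold both ways (85.0%, against 63.7% of all entries). For members at low FPKM the added 1 makes the change smaller, and that of MVK was -0.56 here and -0.74 with a pseudocount of 0.1. The change was negative for 15 and positive for 5, and it ranged from -0.77 (SREBF1) to 0.39 (LSS). The groups did not overlap for 7 members that were lower in HCC827/GR and 1 that was higher, where 23.4% and 22.8% of all entries were separated in these directions. The intervals are not adjusted for the number of genes, and an interval that spans 0 does not show equal expression.

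The mevalonate steps held the one called member. MVK, which phosphorylates mevalonate (chromosome 12, 109573255 to 109598117 on GRCh38), had 3.24 and 3.95 FPKM in HCC827/GS and 2.11, 2.16 and 2.06 FPKM in HCC827/GR. Every resistant library was below both parental libraries, and the 3 resistant values differed by less than the 2 parental ones. The log2 change of MVK was -0.56 with an SE of 0.11 (limma, adjusted p = 0.0413), and an exact permutation test over the libraries gave p = 0.1, the smallest that 3 against 2 can give. The call was lost when any 1 of the 5 libraries was left out, with adjusted p between 0.083 and 0.129, while the change kept its direction in all 14 alternatives.

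MMAB, which encodes an enzyme of vitamin B12 metabolism, starts inside the annotated span of MVK and is read on the opposite strand (chromosome 12, 109553737 to 109573874). It was looked up after the values of MVK had been seen. MMAB had 2.71 and 2.91 FPKM in HCC827/GS and 1.27, 1.63 and 1.33 FPKM in HCC827/GR, a log2 change of -0.66 with an SE of 0.11 (limma, adjusted p = 0.0316). Its call too was lost when any 1 library was left out. The sources used here give no strand setting for the counting, so reads from the part that the pair shares cannot be assigned to either gene.

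The other mevalonate enzymes were not called. HMGCS1, the HMG-CoA synthase at the head of the route, had 45.7 and 39.6 FPKM in HCC827/GS and 27.9, 34.5 and 37.2 FPKM in HCC827/GR, without overlap (log2 change -0.36, SE 0.16, limma adjusted p = 0.235). FDPS, which makes farnesyl diphosphate, had 35.9 and 33.0 FPKM against 26.5, 29.6 and 26.0 FPKM, also without overlap (-0.32, SE 0.11, limma adjusted p = 0.137). The genome holds 8 pseudogenes of FDPS, so its reads may be shared with near copies. PMVK, the kinase after MVK, lay in the other direction, with 6.21 and 6.95 FPKM in HCC827/GS and 7.69, 8.30 and 10.4 FPKM in HCC827/GR (0.36, SE 0.15, limma adjusted p = 0.21). The changes of MVK and PMVK, which catalyse successive phosphorylations, thus had opposite signs, of which only that of MVK was called. For MVD, the decarboxylase, and IDI1, the isomerase, the groups overlapped, and the log2 changes were -0.25 and -0.09. The median log2 change of the 6 mevalonate genes was -0.28.

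Among the squalene and sterol ring enzymes no member was called. The lowest unadjusted p values belonged to HSD17B7 and FDFT1. HSD17B7, a reductase of the late ring steps, had 4.32 and 4.16 FPKM in HCC827/GS and 3.004, 3.16 and 3.20 FPKM in HCC827/GR. The libraries of each group were close together and the groups apart (log2 change -0.35, SE 0.09, limma adjusted p = 0.0721), and 2 pseudogenes carry its name. FDFT1, the squalene synthase that commits farnesyl diphosphate to sterols, had 44.7 and 38.8 FPKM against 30.7, 33.3 and 28.0 FPKM, again without overlap (-0.43, SE 0.12, limma adjusted p = 0.1).

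MSMO1, the C4 methyl sterol oxidase and the most abundant sterol enzyme on the list by mean FPKM, varied more within the resistant line than between the lines. It had 69.8 and 51.5 FPKM in HCC827/GS, and 22.2, 50.6 and 49.3 FPKM in HCC827/GR. Its separation from the parental line was small in replicates 2 and 3 of HCC827/GR and large in replicate 1, and the log2 change of -0.64 had an SE of 0.42 (limma, adjusted p = 0.394). Without HCC827/GR replicate 1 it was -0.26.

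SQLE, the squalene epoxidase that is a rate-limiting enzyme of the ring steps, had 17.5 and 16.7 FPKM in HCC827/GS and 14.97, 19.4 and 15.7 FPKM in HCC827/GR. These values overlap, and the log2 change was -0.04 with a 95% interval from -0.40 to 0.31. DHCR7, which makes the last reduction to cholesterol in 1 branch of the route, had 28.9 and 26.2 FPKM against 22.8, 24.0 and 31.8 FPKM, and its interval ran from -0.53 to 0.37. LSS, the cyclase that closes the ring, had 14.7 and 8.42 FPKM in HCC827/GS and 16.4, 16.0 and 12.6 FPKM in HCC827/GR. The low value of HCC827/GS replicate 3 set the size of the LSS change (log2 0.39, SE 0.26, limma adjusted p = 0.403), which was 0.02 without that library. NSDHL, a decarboxylating dehydrogenase of the C4 demethylation, and SC5D, a desaturase, overlapped between the groups with log2 changes of -0.27 and 0.11. CYP51A1, the lanosterol demethylase, had no entry of its own. Its 4 transcripts sit in a joined entry named after its neighbour LRRD1, which had 7.91 and 7.07 FPKM in HCC827/GS and 7.31, 10.3 and 9.49 FPKM in HCC827/GR (log2 change 0.23, limma adjusted p = 0.434) and was not counted as a member.

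**Figure D2:**
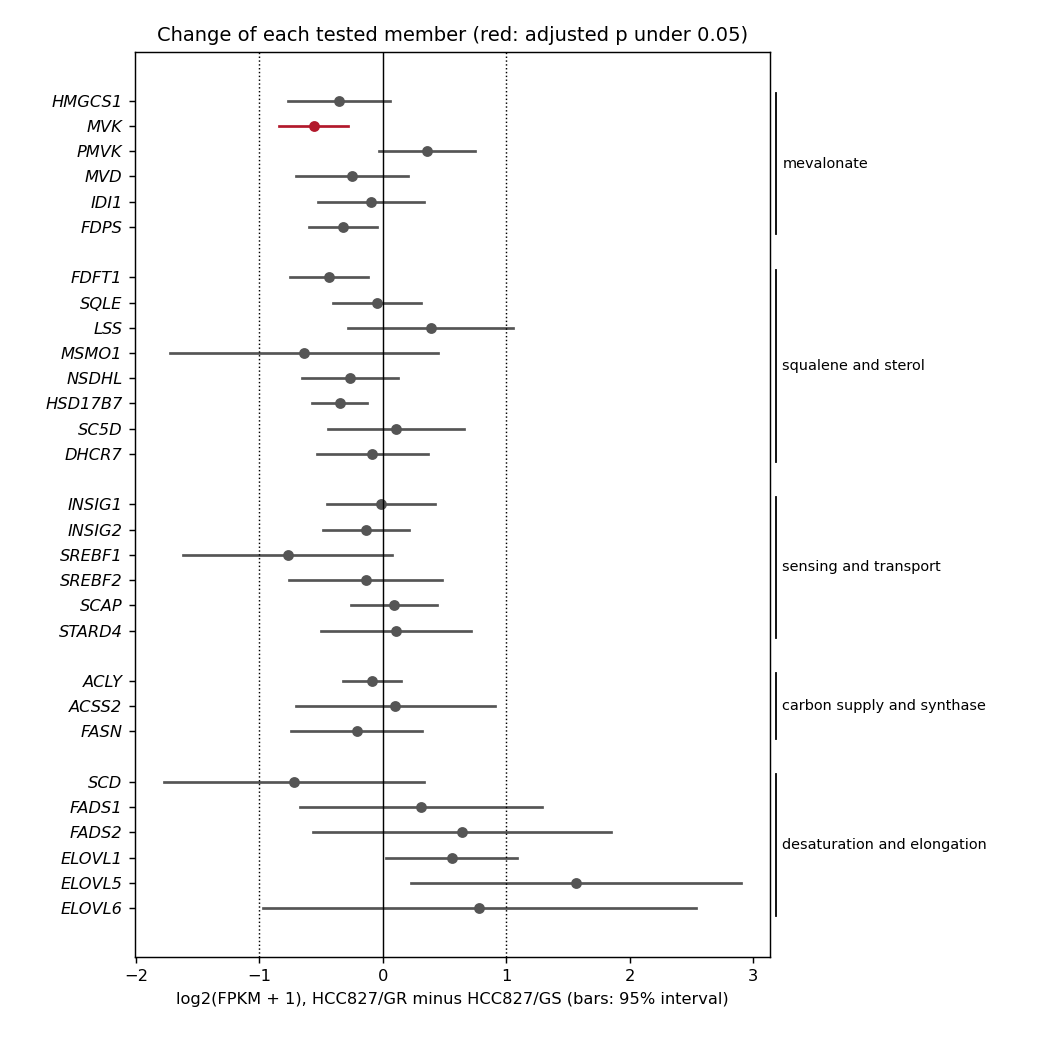
Log2 change of log2(FPKM + 1), HCC827/GR minus HCC827/GS, for the 29 tested members, with 95% intervals from limma (3 against 2 libraries) and dotted lines at 2-fold. Intervals are short for most of the sterol arm, where 17 of 20 stay between the dotted lines, and long for desaturation and elongation, where none of 6 does.

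The sterol sensors and regulators were likewise not called. SREBF1, which encodes the SREBP-1 factors that drive mainly lipogenic genes, had the most negative change of all members. It had 14.2 and 8.57 FPKM in HCC827/GS and 6.33, 8.27 and 4.20 FPKM in HCC827/GR (log2 change -0.77, SE 0.33, limma adjusted p = 0.218). The groups did not overlap, but HCC827/GS replicate 3 and HCC827/GR replicate 2 were close. SREBF2, which encodes the factor that drives mainly sterol genes, overlapped between the lines, with 18.5 and 14.9 FPKM against 15.8, 18.9 and 11.3 FPKM (-0.14, SE 0.24). SCAP, the escort, had 8.18 and 10.6 FPKM in HCC827/GS and 10.6, 9.62 and 9.73 FPKM in HCC827/GR. INSIG1, a sterol-induced retention protein, had 10.9 and 7.64 FPKM against 8.38, 9.13 and 9.63 FPKM, and its log2 change was -0.02 with an interval from -0.45 to 0.42. INSIG2, its less abundant relative, and STARD4, a soluble sterol carrier, were both near 3 FPKM with log2 changes of -0.14 and 0.11.

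The window from 250 bases before to 50 bases after each RefSeq start (GRCh38.p14) was searched for 3 motifs on both strands, because SREBP factors are known to act with NF-Y, which binds CCAAT, and with SP1, which binds GC boxes. RefSeq promoters were found for 28 of the 31 members, 38 promoters in all, and none for FDFT1, SQLE and FASN. CCAAT occurred in 16 of 25 sterol-arm promoters and in 8 of 13 fatty acid promoters, against 34.6% of all 35116 promoters and 34.9% of the 13102 promoters of genes tested here. At least 2 copies were in 11 of the 25 and in 5 of the 13, against 10.8% of all. The GC box GGGCGG occurred in 23 of 25 and in 10 of 13, against 45.0% of all promoters and 65.5% of those of genes tested. The sterol element TCACNCCAC occurred in 1 of the 38, that of SREBF2, against 1.13% of all. Only exact matches to this pattern were searched, so any sterol elements that differ from it were not counted. Several genes have more than 1 promoter with overlapping windows, so promoters are not independent. The promoter of MVK held 5 CCAAT matches but lies within annotated transcribed leader sequence and is not printed. The stretches below end where annotated UTRs begin and are shown because they hold several CCAAT matches, belong to HSD17B7, or carry the sterol element. They are written 5′ to 3′ on the strand of the gene, with CCAAT (or ATTGG, its reverse complement) and the sterol element in capitals, and in NSDHL a match on each strand overlaps as CCAATTGG.
MVD, chr16:88663149-88663341 (minus strand): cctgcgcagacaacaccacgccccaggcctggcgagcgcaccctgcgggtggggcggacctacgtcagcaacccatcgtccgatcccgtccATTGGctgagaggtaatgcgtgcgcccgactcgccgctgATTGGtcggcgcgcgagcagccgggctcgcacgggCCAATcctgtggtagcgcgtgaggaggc
MSMO1, chr4:165327419-165327622 (plus strand): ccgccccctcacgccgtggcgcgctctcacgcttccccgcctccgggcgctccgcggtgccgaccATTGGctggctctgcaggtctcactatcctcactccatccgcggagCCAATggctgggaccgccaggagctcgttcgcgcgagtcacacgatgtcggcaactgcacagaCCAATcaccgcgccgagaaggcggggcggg
NSDHL, chrX:152830813-152830966 (plus strand): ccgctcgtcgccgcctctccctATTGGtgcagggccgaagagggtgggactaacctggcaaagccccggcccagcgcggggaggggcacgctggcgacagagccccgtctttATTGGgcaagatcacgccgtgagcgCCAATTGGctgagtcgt
HSD17B7, chr1:162790452-162790701 (plus strand): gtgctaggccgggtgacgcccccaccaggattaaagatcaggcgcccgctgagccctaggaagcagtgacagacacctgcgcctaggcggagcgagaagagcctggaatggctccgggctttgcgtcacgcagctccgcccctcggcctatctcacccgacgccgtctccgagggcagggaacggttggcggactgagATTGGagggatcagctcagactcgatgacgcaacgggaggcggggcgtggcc
SREBF2, chr22:41832855-41833078 (plus strand): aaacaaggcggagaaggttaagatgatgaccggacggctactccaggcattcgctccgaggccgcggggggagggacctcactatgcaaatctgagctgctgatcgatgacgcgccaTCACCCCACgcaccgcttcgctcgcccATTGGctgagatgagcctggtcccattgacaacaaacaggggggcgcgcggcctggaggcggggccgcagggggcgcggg
STARD4, chr5:111512591-111512785 (minus strand): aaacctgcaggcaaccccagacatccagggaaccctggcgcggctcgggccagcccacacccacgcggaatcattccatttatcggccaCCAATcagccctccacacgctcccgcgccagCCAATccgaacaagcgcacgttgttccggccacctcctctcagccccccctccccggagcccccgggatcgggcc
SCD, chr10:100346983-100347123 (plus strand): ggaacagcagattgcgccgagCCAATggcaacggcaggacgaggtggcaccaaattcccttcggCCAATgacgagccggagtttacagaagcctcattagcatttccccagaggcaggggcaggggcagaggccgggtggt
MVD, MSMO1 and NSDHL, with 3, 3 and 4 matches in these stretches, had log2 changes of -0.25, -0.64 and -0.27, none of them called. SCD and STARD4, with 2 each, had -0.72 and 0.11, also not called, and that of STARD4 turned negative in some alternatives. Whole windows with several matches also belonged to MVK (-0.56, called), FDPS, HMGCS1, IDI1, DHCR7, HSD17B7 and ACLY, all with negative changes in the main fit. Only that of MVK was called, and those of IDI1 and DHCR7 turned positive in some alternatives. ELOVL5 (1.57, not called) and the untested ACACB had several as well. Changes were negative for 15 and positive for 5 of the 20 tested sterol members. With no CCAAT match in their stretches outside annotated UTRs, SREBF1 had -0.77 and ELOVL6 had 0.78, neither called. No test was made of matches against changes. A match describes letters in a window, and binding was not measured.

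**Figure D3:**
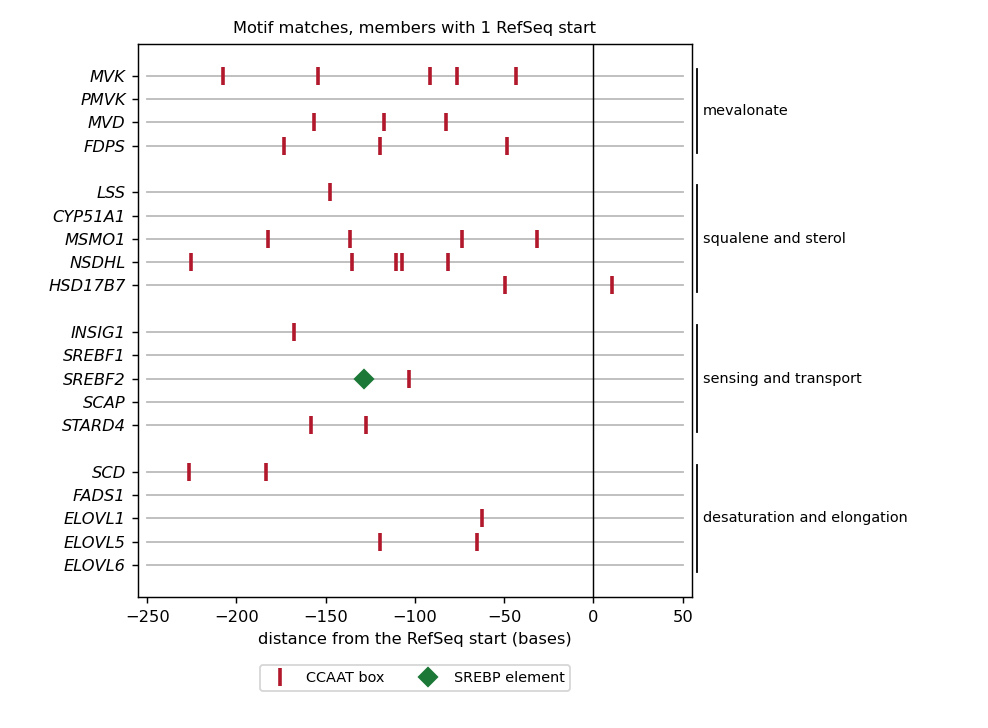
Positions of CCAAT matches on either strand (bars) and of the sterol element (diamond) relative to the RefSeq start, in bases, for the members with 1 RefSeq start. MVK and NSDHL hold 5 CCAAT matches each, SREBF2 holds the only exact match to the sterol element searched, and several members hold no match.

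In the fatty acid arm, the 3 tested genes of carbon supply and synthesis each had a 95% interval within 2-fold. ACLY, which makes cytosolic acetyl-CoA from citrate and had the highest mean of all members, had 170 and 162 FPKM in HCC827/GS and 158, 158 and 153 FPKM in HCC827/GR. The groups did not overlap, but the log2 change was only -0.09, with an interval from -0.32 to 0.15. FASN, the fatty acid synthase, had 81.4 and 60.1 FPKM against 61.7, 70.2 and 50.6 FPKM (-0.21, SE 0.20, limma adjusted p = 0.573). ACSS2, which makes acetyl-CoA from acetate, had 12.1 and 6.46 FPKM against 9.67, 12.04 and 7.61 FPKM (0.10, SE 0.31). ACACB, the acetyl-CoA carboxylase of the mitochondrial membrane, stayed under the filter, with 0.588 and 0.507 FPKM in HCC827/GS and 0.486, 0.421 and 0.336 FPKM in HCC827/GR, and was not tested.

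Desaturases and elongases varied most between libraries of the same line, with a median SE of 0.43 against 0.16 over all entries, and their median log2 change was 0.60. ELOVL5, which elongates polyunsaturated chains, had the largest change of all members in size. It had 13.2 and 12.7 FPKM in HCC827/GS, and 51.9, 20.0 and 62.7 FPKM in HCC827/GR. All resistant libraries were above both parental ones, but replicate 2 of HCC827/GR was much closer to them than the others were (log2 change 1.57, SE 0.51, limma adjusted p = 0.136). Without that library the change was 2.06 and was called (limma, adjusted p = 0.023). Another 3 entries that carry the symbol ELOVL5 reached at most 1.75 FPKM. ELOVL1, which extends very long saturated and monounsaturated chains, had 16.2 and 17.5 FPKM in HCC827/GS and 19.9, 25.9 and 31.2 FPKM in HCC827/GR (0.56, SE 0.20, limma adjusted p = 0.168). ELOVL5 and ELOVL1 were the 2 members higher at an unadjusted p under 0.05. ELOVL6, which elongates the product of the synthase, overlapped, with 1.81 and 4.54 FPKM against 10.5, 7.95 and 2.04 FPKM (0.78, SE 0.67, limma adjusted p = 0.521).

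SCD, the stearoyl-CoA desaturase that makes monounsaturated chains, had 244 and 131 FPKM in HCC827/GS and 101, 158 and 79.1 FPKM in HCC827/GR. HCC827/GR replicate 2 exceeded HCC827/GS replicate 3, and the log2 change of -0.72 had an SE of 0.40 (limma, adjusted p = 0.331). FADS1, the delta-5 desaturase, had 5.71 and 6.22 FPKM against 5.25, 6.29 and 13.1 FPKM, so that its log2 change of 0.31 rested on HCC827/GR replicate 3 and was -0.04 without it. FADS2, the delta-6 desaturase, had 7.70 and 1.97 FPKM in HCC827/GS and 6.70, 7.15 and 6.94 FPKM in HCC827/GR (0.64, SE 0.46, limma adjusted p = 0.441). The resistant libraries lay close to HCC827/GS replicate 2, and replicate 3 stood apart. Without replicate 2 the change was 1.42 and called (limma, adjusted p = 0.0369), and without replicate 3 it was -0.13. The entry of FADS2 also holds transcripts of FEN1, a nuclease gene within it, so its level is not that of FADS2 alone.

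Many members also differed in the same direction between libraries of the same line. HCC827/GS replicate 2 was above replicate 3 in 21 of 29 members, and in 50.4% of all entries tested, and the count stayed at 21 after median-ratio scaling and after quantile normalization. HCC827/GR replicate 2 was above replicate 1 in 23 of 29, and in 46.7% of all entries. Replicate 2 was above replicate 3 of HCC827/GR in 16 of 29. The summed level of the sterol arm was 364 and 310 FPKM in HCC827/GS and 248, 304 and 291 FPKM in HCC827/GR, so HCC827/GS replicate 3 and HCC827/GR replicate 2 nearly met. The summed level of the fatty acid arm was 552 and 402 FPKM in HCC827/GS, and 425, 465 and 406 FPKM in HCC827/GR, which overlap. Genes are not independent replicates, and no test was made of these counts.

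**Figure D4:**
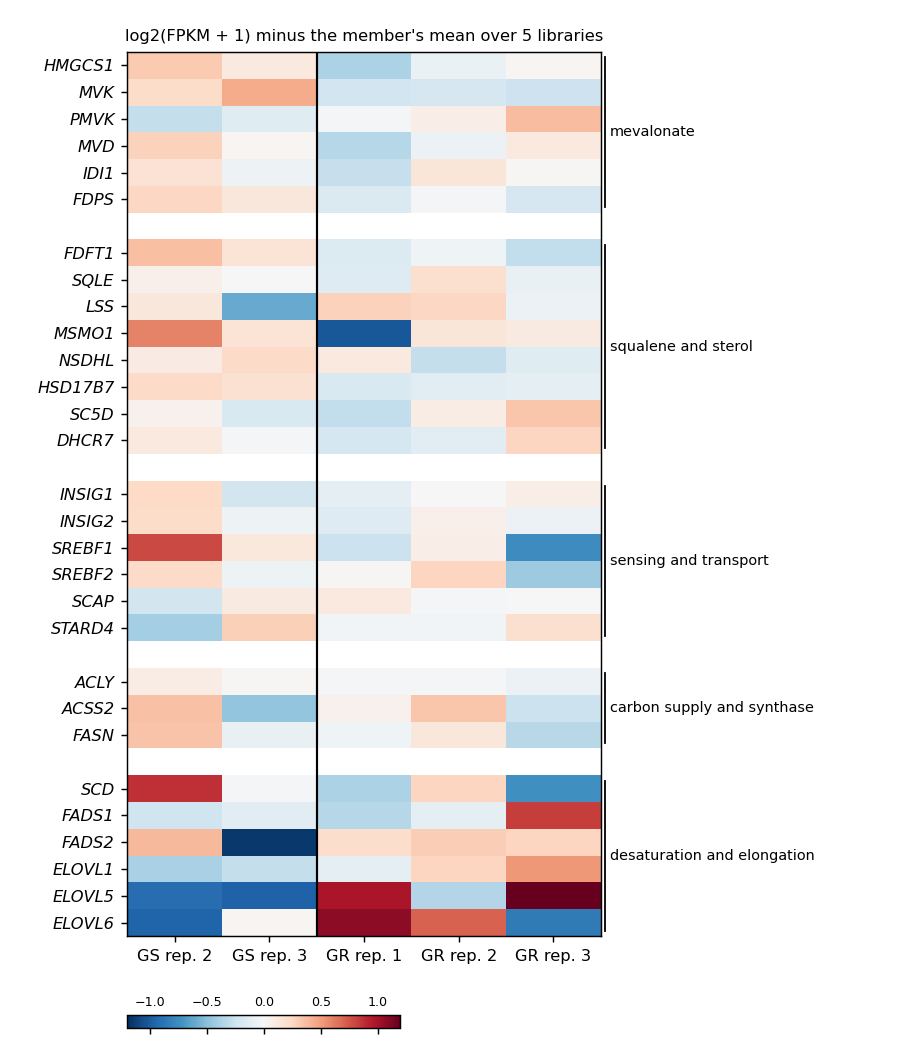
Log2(FPKM + 1) of each tested member in each of the 5 libraries, minus the mean of that member over the libraries, on a colour scale from -1.2 (blue) to 1.2 (red). HCC827/GS replicate 2 is red for most of the sterol arm, HCC827/GR replicate 1 is blue for most of it, and the largest deviations are in desaturation and elongation and in MSMO1.

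The other genes of these pathways were read from a pair of lists of neighbouring enzymes, carriers and regulators. Both lists were chosen with earlier results of these data known. On the sterol list 18 of 20 genes were tested. Of these, 2 were higher and 0 lower at an adjusted p under 0.05 (limma), 3 and 2 at an unadjusted p, and 0 by Ballgown's model, with a median log2 change of 0.04. Over all entries these shares were 5.26% and 5.71% at an adjusted p and 13.4% and 13.8% at an unadjusted p, and the unadjusted counts on this list of 18 were near that background. Ballgown's model called only 6 higher and 9 lower among all entries. NPC1, which exports cholesterol from lysosomes, had 27.0 and 30.6 FPKM in HCC827/GS and 42.6, 42.7 and 42.8 FPKM in HCC827/GR (log2 change 0.56, SE 0.10, limma adjusted p = 0.0322). STARD3, a sterol carrier of late endosomes, had 5.599 and 5.52 FPKM against 8.79, 8.99 and 7.87 FPKM (0.54, SE 0.10, limma adjusted p = 0.0355). The means of NPC1 and STARD3 were 1.49-fold and 1.54-fold higher in HCC827/GR, and both calls were lost when any 1 library was left out.

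On the fatty acid list 22 of 26 genes were tested, of which 5 were higher and 1 lower at an adjusted p under 0.05 (limma), 9 and 2 at an unadjusted p, and 0 by Ballgown's model, with a median log2 change of 0.33. The shares over all entries, to read these counts against, were again 5.26% and 5.71% at an adjusted p and 13.4% and 13.8% at an unadjusted p. By Ballgown's model they were again only 6 higher and 9 lower entries. The 5 higher calls became 1 with no filter on low values and between 0 and 2 with any 1 library left out. ACACA, the cytosolic acetyl-CoA carboxylase that supplies malonyl-CoA to FASN, had 27.0 and 22.2 FPKM in HCC827/GS and 75.7, 84.1 and 62.1 FPKM in HCC827/GR. All resistant libraries were far above both parental ones, a 3.01-fold difference of the means (log2 change 1.55, SE 0.17, limma adjusted p = 0.0122). The call was kept in 2 of the 5 fits that leave out 1 library. ACACA and STARD3 both lie on chromosome 17, at 37084988 to 37406818 and at 39637065 to 39663484 (GRCh38). The other members and neighbouring genes on chromosome 17 were SREBF1 (from 17810399), ACLY (from 41866908), FASN (from 82078333) and MLX (from 42567068). None of these lies between ACACA and STARD3, so their values do not describe that stretch. The log2 changes of SREBF1, ACLY, FASN and MLX were -0.77, -0.09, -0.21 and -0.14, none of them called. A part of gene position was not tested. ACSL5, which activates fatty acids with CoA, had 6.99 and 5.83 FPKM in HCC827/GS and 0.779, 0.72 and 1.10 FPKM in HCC827/GR. Its fall (log2 change -1.99, SE 0.14, limma adjusted p = 0.00518) was called in all 5 fits that leave out 1 library.

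Another 4 genes of this list were called, all of them higher in HCC827/GR. FADS3, a relative of FADS1 and FADS2, had 4.09 and 4.33 FPKM in HCC827/GS and 11.8, 9.82 and 7.58 FPKM in HCC827/GR (log2 change 1.03, limma adjusted p = 0.0382). SCD5, a second stearoyl-CoA desaturase, had 0.359 and 0.458 FPKM against 1.66, 1.78 and 1.28 FPKM (0.86, limma adjusted p = 0.0288). It lay in the opposite direction to SCD, which was not called and whose level was far higher. DGAT2, which makes triglyceride, had 0.328 and 0.368 FPKM against 1.07, 1.32 and 1.35 FPKM (0.73, limma adjusted p = 0.0328). HACD1, a dehydratase of the elongation cycle, had 0.994 and 1.27 FPKM against 2.38, 1.996 and 2.45 FPKM (0.62, limma adjusted p = 0.0453). For genes near 1 FPKM the pseudocount of 1 makes the log2 change smaller than the ratio of the levels. Of these calls, only that of FADS3 was kept in any fit with 1 library left out, in 1 of 5.

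**Figure D5:**
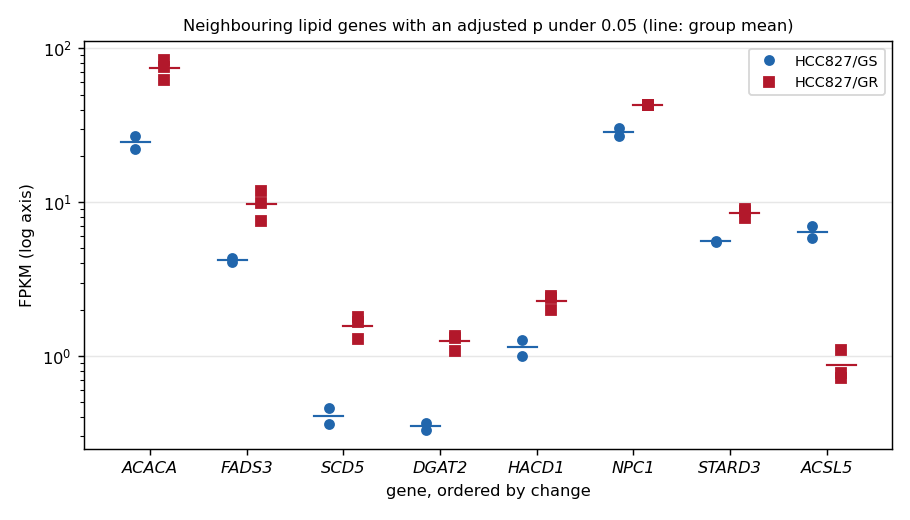
Level of the 8 neighbouring lipid genes with an adjusted p under 0.05, in FPKM on a log axis, in the 2 HCC827/GS libraries (circles) and the 3 HCC827/GR libraries (squares), with a line at each group mean. The groups do not overlap for any of the 8, and ACSL5 is the only one that is lower in HCC827/GR.

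Markers were read in all 5 libraries to check the labelled cell type. Epithelial markers were present in every library, but their summed level was between 437 and 565 FPKM in HCC827/GR and between 1028 and 1156 FPKM in HCC827/GS, with an entry for 4 of 5 (none for KRT7). Leukocyte markers summed to at most 0.287 FPKM (no entry for CD3E) and adipocyte markers to at most 0.0941 FPKM (no entry for ADIPOQ). Endothelial markers summed to at most 0.0333 FPKM in HCC827/GR and to between 3.38 and 4.44 FPKM in HCC827/GS, nearly all from an entry named PECAM1 that holds no annotated transcript and is listed at 0 in HCC827/GR. The epithelial sum thus moved with the groups compared here, and its part in the changes of the lipid genes was not tested. Libraries of the same line correlated at 0.913 to 0.927 across the tested entries and libraries of different lines at 0.851 to 0.873 (Pearson's r of log2(FPKM + 1), across genes, which are not independent replicates).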

How the data were processed

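RNA sequencing of 3 HCC827/GR and 2 HCC827/GS libraries was analysed from 1 gene-level table, deposited by the authors in FPKM. Per the submitters' processing notes, reads were trimmed with cutadapt, checked with FastQC and mapped with Bowtie2 and TopHat2, and StringTie gave the FPKM. The notes name hg18, and tool versions were not given in the sources used here. The paper describes a paired-end mRNA library and the labels a single-end small-RNA library, which was not settled. Another 1 FPKM column, which appears to belong to a further HCC827/GS library, matched no sample and was not used. Positions came from GENCODE release 29 (GRCh38), matched by transcript identifier, and promoters from RefSeq (GRCh38.p14).

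HCC827/GR was compared with HCC827/GS by limma 3.58.1 in R 4.3.3 (trend, two-sided) on log2(FPKM + 1), over the 16189 entries whose mean reached 0.5 FPKM, with Benjamini-Hochberg adjustment over all of them and a threshold of 0.05. Python 3.11.15 with pandas 2.3.3, numpy 2.4.6 and matplotlib 3.10.9 served for the rest. The steps were tested on simulated data with 3 against 2 libraries. There, the changed entries all had a mean log2(FPKM + 1) above 2, so genes at lower levels were not covered. Of these entries, 37 of 100 with a log2 change of 1 were called, and 87 of 100 with a change of 2, beside 8 false calls. A gene that was not called may therefore still differ. All 31 members are named, and neighbouring genes where called. The members and lists were chosen with earlier results of these data known. Alternatives were another pseudocount (0.1), filter (none, or a mean of at least 1 FPKM), scaling (median ratio, quantile) or variance model (no trend, Ballgown with library size), the replicate block, entries of one symbol summed, and each library left out.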

Additional observations from a re-analysis of the deposited data

How the results depend on the processing

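MVK was called in 5 of 14 alternatives, and the number of members called lower was 0 with Ballgown's model (adjusted p of MVK 0.293), with entries of one symbol summed (0.0512), with no filter (0.0812), with the replicate block and in every fit with 1 library left out. The number called higher was between 0 and 1 with 1 library left out, and the 1 was ELOVL5 without HCC827/GR replicate 2 and FADS2 without HCC827/GS replicate 2. With 1 library left out, the median change ran from -0.26 to -0.10 in the sterol arm and from -0.12 to 0.43 in the fatty acid arm.

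Replicate numbers 2 and 3 occur in both lines, and the labels do not say whether same-numbered libraries belong together. Across all entries, same-numbered libraries hardly deviated together from their group means (r of 0.03 and 0.01). The deviations of the 2 parental libraries mirror each other, so both values rest on the same parental contrast. A batch shared by same-numbered libraries was not tested. With the replicate block, which rests on those 4 libraries, 0 of all entries were called, MVK had -0.56 (adjusted p = 0.194, limma), and IDI1, SQLE, DHCR7 and INSIG1 turned to 0.025, 0.026, 0.0065 and 0.032.

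Uncalled changes also turned sign in SC5D (-0.18), SREBF2 (0.081), STARD4 (-0.019) and FADS1 (-0.25) with Ballgown's model, and in SC5D (-0.24) and STARD4 (-0.20) with entries summed. With 1 library left out, IDI1 ran from -0.21 to 0.027, SQLE from -0.15 to 0.026, DHCR7 from -0.23 to 0.0065, INSIG1 from -0.25 to 0.22, INSIG2 from -0.28 to 0.0039, SC5D from -0.036 to 0.28, SREBF2 from -0.30 to 0.052, SCAP from -0.073 to 0.26, STARD4 from -0.24 to 0.45, FASN from -0.43 to 0.0040, ACSS2 from -0.31 to 0.51, FADS1 from -0.043 to 0.54 and FADS2 from -0.13 to 1.42. None of these turns reached an adjusted p under 0.05. Over all entries, Ballgown's model called 6 higher and 9 lower, the fit with no filter 504 and 757, and the fits with 1 library left out 181 to 450 and 248 to 434, against 851 and 924. The cause of the lost calls was not tested. Depth, unknown for FPKM, sets no limit that could be stated.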
